A study of Mus musculus with 12 samples.

Results

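The genes described here are 9 genes of glucose production and of the first steps of insulin signalling, taken by name from the 28036 genes of the count table: the gluconeogenic genes Pck1, G6pc (also called G6pc1), Fbp1 and Pcx, their coactivator Ppargc1a, the glycolytic gene Pklr, and the insulin receptor Insr with its substrates Irs1 and Irs2. All 9 were found, under the identifiers ENSMUSG00000027513 (Pck1), ENSMUSG00000078650 (G6pc), ENSMUSG00000069805 (Fbp1), ENSMUSG00000024892 (Pcx), ENSMUSG00000029167 (Ppargc1a), ENSMUSG00000041237 (Pklr), ENSMUSG00000005534 (Insr), ENSMUSG00000055980 (Irs1) and ENSMUSG00000038894 (Irs2), and all 9 passed the filter on low counts. RNA was measured in 12 liver samples of C57BL/6J mice, 3 in each of 4 groups. The control group ate normal chow and received 0.5% CMC-Na, a cellulose suspension used as vehicle. The MASH group was fed a high-fat diet that models MASH (metabolic dysfunction-associated steatohepatitis, a fatty liver disease with inflammation) and received the same vehicle. The EE group had that diet and was dosed orally with 100 mg/kg Eleutheroside E, a lignan glycoside found in Eleutherococcus plants. The resmetirom group had that diet and was dosed orally with 3 mg/kg resmetirom, which activates thyroid hormone receptor beta. Dosing followed 8 weeks of model feeding and lasted 4 weeks in all 4 groups, to 12 weeks in total. The MASH livers enter 3 of the 4 comparisons, which therefore share them. Food was freely available, and the sources used here give no sex, age, diet composition or fast before collection. No label says that the samples of a group came from separate animals, so the p-values measure the spread between these samples. Each sample is named by its group and replicate number.

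Between meals the liver makes glucose from lactate, amino acids and glycerol. Pyruvate carboxylase (Pcx) makes oxaloacetate in mitochondria, phosphoenolpyruvate carboxykinase (Pck1) turns it into phosphoenolpyruvate, fructose-1,6-bisphosphatase (Fbp1) carries out a later irreversible step, and glucose-6-phosphatase (G6pc) releases free glucose. Liver pyruvate kinase (Pklr) runs the opposite way, from phosphoenolpyruvate to pyruvate, and is a classical target of the carbohydrate-responsive factor ChREBP. Insulin binds its receptor (Insr), which phosphorylates the adaptor proteins Irs1 and Irs2, and the signal through PI3-kinase and AKT keeps the transcription factor FOXO1 out of the nucleus. FOXO1 with the coactivator PGC-1 alpha (Ppargc1a) activates Pck1 and G6pc, and FOXO1 also activates Irs2.

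The promoters of 4 of these genes are printed because the results turn on how each pair behaved: Irs1 and Irs2, of which the latter changed with resmetirom, and Pck1 and G6pc, whose fold changes had opposite signs with Eleutheroside E, neither passing the test. Each window runs 5′ to 3′ on the gene's own strand, from 250 bases before to 50 bases after the annotated start (RefSeq, build GRCm38.p6). Capitals mark matches, on either strand, to the searched motifs, of which these windows hold the FOXO insulin response core TGTTTTG, the E-box CACGTG and TGACG, the core of the cAMP response element. On the other strand that core reads CGTCA.
Irs2 (chr8:11008880-11009179, minus strand): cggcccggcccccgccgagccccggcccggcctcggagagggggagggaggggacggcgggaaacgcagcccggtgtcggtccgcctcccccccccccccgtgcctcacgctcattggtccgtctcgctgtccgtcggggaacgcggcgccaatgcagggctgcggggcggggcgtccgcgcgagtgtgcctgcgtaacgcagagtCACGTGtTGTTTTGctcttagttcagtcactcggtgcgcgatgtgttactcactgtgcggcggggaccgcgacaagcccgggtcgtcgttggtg
Irs1 (chr1:82291390-82291689, minus strand): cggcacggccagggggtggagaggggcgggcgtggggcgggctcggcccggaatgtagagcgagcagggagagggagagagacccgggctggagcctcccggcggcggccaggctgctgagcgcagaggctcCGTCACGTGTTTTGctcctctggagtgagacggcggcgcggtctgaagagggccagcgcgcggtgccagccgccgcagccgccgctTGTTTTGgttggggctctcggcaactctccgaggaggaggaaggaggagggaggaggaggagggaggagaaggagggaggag
Pck1 (chr2:173152823-173153122, plus strand): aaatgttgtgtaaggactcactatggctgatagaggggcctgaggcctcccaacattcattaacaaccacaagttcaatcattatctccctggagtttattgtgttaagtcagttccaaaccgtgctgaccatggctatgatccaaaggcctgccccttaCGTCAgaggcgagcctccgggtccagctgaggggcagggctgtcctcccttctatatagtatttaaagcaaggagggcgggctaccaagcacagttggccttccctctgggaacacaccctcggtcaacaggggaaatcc
G6pc (chr11:101367466-101367765, plus strand): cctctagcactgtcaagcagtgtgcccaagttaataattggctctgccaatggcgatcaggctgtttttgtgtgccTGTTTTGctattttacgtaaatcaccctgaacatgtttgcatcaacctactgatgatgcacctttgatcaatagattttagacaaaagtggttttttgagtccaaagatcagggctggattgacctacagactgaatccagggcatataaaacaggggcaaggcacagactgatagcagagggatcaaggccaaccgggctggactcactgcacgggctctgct

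In Irs2, CACGTG lay 44 to 39 bases before the start and TGTTTTG 37 to 31 bases before it, 1 base apart. In Irs1, CACGTG at 115 to 110 bases before the start overlapped TGTTTTG at 111 to 105 bases, a CGTCA at 118 to 114 bases overlapped that E-box, and a second TGTTTTG lay at 32 to 26 bases. The Pck1 window held CGTCA 90 to 86 bases before the start, and the G6pc window held TGTTTTG at 174 to 168 bases. Of 32817 windows of this length, 6.29% held TGTTTTG, 7.15% held CACGTG and 20.8% held TGACG on either strand. Of the 8 members with a window, TGTTTTG was present in G6pc, Irs1 and Irs2, CACGTG in Irs1, Irs2 and the upstream window of Pcx, and TGACG in Pck1, Irs1 and Ppargc1a. The other motifs searched, TGTTTAC (3.65% of windows), TGACGTCA (1.79%), TGACGCAA (0.491%), the glucocorticoid receptor core TGTTCT (19% of windows) and the HNF4A motif CAAAGTCCA (0.475%), had no match in the members' 10 windows. A match is a run of letters and not a measured binding site.

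The libraries held 17297864 to 21793311 counts, and levels are given as TMM-scaled CPM, the reads of a gene relative to the depth of its library, with SDs over n = 3 samples. 2 libraries stood apart by the share of their counts in mitochondrial or major urinary protein transcripts. In control 1, mitochondrially encoded transcripts took 35.4% of the counts against 2.40% to 4.38% in the other 11, and in resmetirom 2 the major urinary proteins took 35.7% against 3.33% to 16.0%. Values without both are given beside the results they alter. Hepatocyte markers summed to 61540 CPM or more in every library, with the lowest sum in resmetirom 1. Skeletal muscle markers, all 6 measured, summed to at most 3.74 CPM. Exocrine pancreas markers, all 6 measured, summed to 1.38 to 19.3 CPM in the resmetirom livers, highest in resmetirom 2, and to at most 0.703 CPM elsewhere. Adipocyte markers, 5 of 7 measured, summed to 15.6 to 21.9 CPM with resmetirom, 36.9 to 68.0 CPM in MASH, 22.5 to 43.6 CPM with Eleutheroside E and 17.9 to 22.4 CPM in controls. Up to 5 of the pancreas markers and up to 3 of the adipocyte markers were at 0 in a library. In bulk liver RNA, fewer cells of a type and less RNA per cell cannot be told apart.

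Compared per kilobase of exon, Pck1 was the most abundant of the 9 genes in 8 of the 12 livers and Fbp1 in the other 4, which were the 3 MASH livers and control 2. Median levels over the 12 livers were 524 CPM per kilobase for Pck1, 447 for Fbp1, 143 for G6pc, 114 for Pcx and 76.2 for Pklr. The signalling genes were far scarcer, with medians of 6.43 CPM per kilobase for Insr, 1.93 for Irs2 and 1.44 for Irs1. Ppargc1a ranked last in all 12 livers, at 0.374 to 1.16 CPM per kilobase, which rests on 48 to 150 counts a library.

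**Figure D1:**
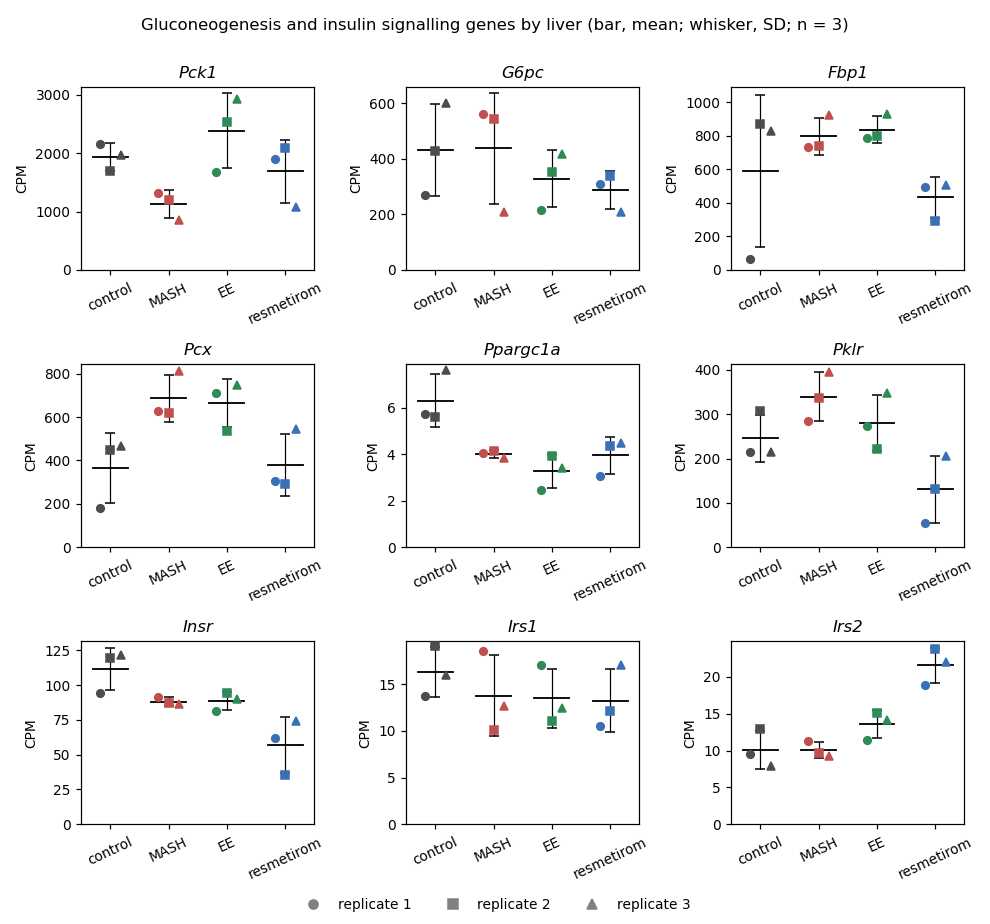
Level of each of the 9 genes in each liver, in CPM on a linear axis from 0 (vertical) by group (horizontal). Points are single livers, with the marker shape giving the replicate number, bars are group means and whiskers the SD over n = 3. All 3 resmetirom livers lie above the other 9 for Irs2 (18.95 CPM and higher), and control 1 lies far below the other controls for Fbp1.

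Irs2 was the 1 member that passed the test across all genes, and it did so with resmetirom. Irs2 stood at 18.95, 23.75 and 22.0 CPM in resmetirom 1, 2 and 3 and at 11.35, 9.66 and 9.25 CPM in MASH 1, 2 and 3. The lowest resmetirom liver thus lay above the highest MASH liver, and above all 9 livers not given resmetirom. The mean rose from 10.1 ± 1.11 to 21.6 ± 2.43 CPM (SD, n = 3 each), a log2 fold change of 1.09 ± 0.21 (SE) with an edgeR adjusted p = 0.0439. These levels rest on 231 to 492 counts a library in the 6 livers. The controls, at 9.55, 12.9 and 7.87 CPM, had the same mean as MASH within their spread (log2 fold change −0.01 ± 0.21 for MASH against control; edgeR adjusted p = 0.995). With Eleutheroside E, Irs2 stood at 11.5, 15.1 and 14.1 CPM, just above the highest MASH liver at the lowest and below each resmetirom liver, and neither difference passed (0.43 ± 0.21, edgeR adjusted p = 0.696 against MASH; −0.66 ± 0.21, 0.233 against resmetirom).

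The size of the Irs2 difference changed little with the choice of livers, while its call was lost in 12 of the 21 alternative settings. Without control 1 and resmetirom 2 it was 1.02 (edgeR adjusted p = 0.0298), and with 1 library left out at a time it was 1.01 to 1.18. DESeq2 and limma voom also called it (adjusted p = 0.000298 and 0.0384). Settings in which it lost the edgeR call included those without MASH 1, MASH 2 or MASH 3 (adjusted p = 0.137, 0.194 and 0.191), without EE 1, EE 2 or EE 3 (0.0746, 0.0771 and 0.0885) and without resmetirom 2 or resmetirom 3 (0.123 and 0.0653), a fit of MASH and resmetirom alone (0.12) and scaling of the libraries by their totals only (0.86; 0.618). Summed pericentral hepatocyte markers, all 8 measured, were 1735, 7665 and 7408 CPM in resmetirom 1, 2 and 3 and 9597 to 12560 CPM in MASH. Stellate cell and fibroblast markers, all 8 measured, were 612, 143 and 196 CPM in resmetirom 1, 2 and 3 against 231 to 262 CPM. Resmetirom 1 thus stood apart from the other resmetirom livers in both. The part of these and of the pancreas and adipocyte markers in the resmetirom differences was not tested.

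The receptor and the other substrate did not share this pattern. Insr stood at 61.7, 35.2 and 74.3 CPM in resmetirom 1, 2 and 3 and at 91.5, 86.9 and 86.1 CPM in MASH 1, 2 and 3. Each resmetirom liver was below each MASH liver, with resmetirom 2 the lowest of all 12. The difference did not pass (−0.63 ± 0.25; edgeR adjusted p = 0.262) and was −0.38 (0.106) without control 1 and resmetirom 2. In controls Insr was 94.0, 119 and 121 CPM, each above the MASH livers (−0.34 ± 0.24 for MASH against control; edgeR adjusted p = 0.704; −0.44 and 0.235 without the outlying libraries). With library totals only, MASH against control was 0.01 (edgeR adjusted p = 0.995). With Eleutheroside E Insr was 81.4 to 94.6 CPM, overlapping MASH (0.01 ± 0.24, adjusted p = 0.997). Irs1 ranged from 10.1 to 19.1 CPM over the 12 livers and overlapped between the groups in all 4 comparisons, with log2 fold changes of −0.24 ± 0.27 (MASH against control), −0.03 ± 0.27 (EE against MASH), −0.06 ± 0.27 (resmetirom against MASH) and 0.03 ± 0.27 (EE against resmetirom; edgeR adjusted p = 0.803 to 0.986).

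Ratios of 2 genes within a library do not depend on how libraries are scaled, and were computed after the values had been seen. Irs2 over Irs1, per kilobase, was 2.6, 2.83 and 1.86 in the resmetirom livers against 0.883, 1.38 and 1.06 in MASH and 0.712 to 1 in controls. Irs2 over Insr was 0.668, 1.47 and 0.643 with resmetirom, against 0.234 to 0.27 in MASH and 0.307 to 0.348 with Eleutheroside E. The 3 resmetirom livers were thus the highest of the 12 in the latter ratio, and EE 2 (1.98) lay among them in the former.

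**Figure D2:**
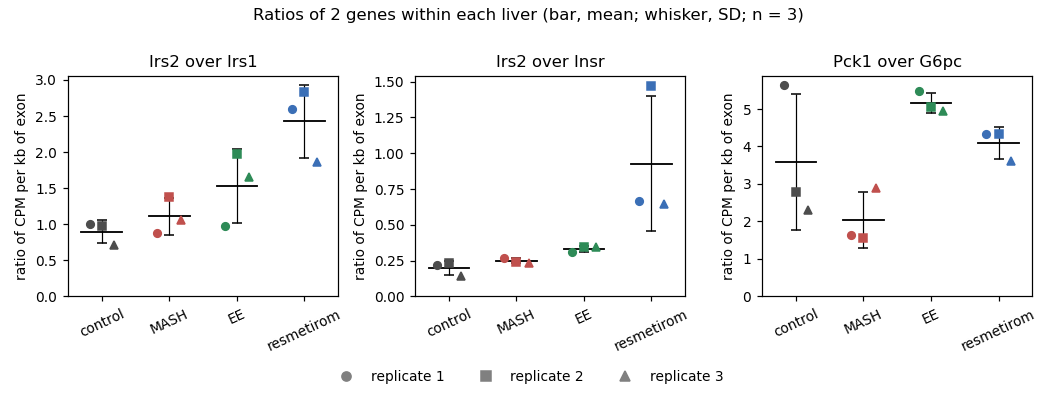
Ratio of the CPM per kilobase of exon of 2 genes within each liver (vertical, linear axis from 0) by group (horizontal). Points are single livers, bars means and whiskers the SD over n = 3. Irs2 over Insr is 0.643 or more in the resmetirom livers and at most 0.348 in the others, and Pck1 over G6pc is 4.95 to 5.47 with Eleutheroside E and 1.56 to 2.9 in MASH.

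Of the 9 genes, 1 passed edgeR for resmetirom against MASH, where 0.665% of the 13988 tested genes did. In 5 of the 9 the groups did not overlap (Irs2 higher; Pklr, Pcx, Fbp1 and Insr lower), beside 23.9% of all tested genes. The median log2 fold change was −0.61 over the 9 genes and 0.06 over all tested genes.

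Among these, Pklr had the lowest fold change with resmetirom. It stood at 54.3, 131 and 206 CPM in resmetirom 1, 2 and 3 and at 286, 337 and 396 CPM in MASH 1, 2 and 3. All 3 resmetirom livers were below every other liver, although they differed among themselves by more than the other groups did. The difference of −1.38 ± 0.39 did not pass edgeR (adjusted p = 0.137), but passed without resmetirom 3 (−1.88; 0.049), with DESeq2 (−1.36; 0.0232) and without a filter on low counts (−1.41; 0.0219). It was −1.39 (0.131) without control 1 and resmetirom 2. Against Eleutheroside E, which gave 272, 221 and 347 CPM, it was lower too without passing (1.10 ± 0.39 for EE against resmetirom; edgeR adjusted p = 0.29). The controls, at 215, 307 and 216 CPM, overlapped MASH (0.46 ± 0.39; adjusted p = 0.739). The red cell form of pyruvate kinase comes from the same gene, and summed erythroid markers were 643 to 1680 CPM with resmetirom and 573 to 757 CPM in MASH, their part in the values not being tested.

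Pcx and Fbp1, an early and a late enzyme of glucose production, were lower in every resmetirom liver than in every MASH liver. Pcx stood at 305, 290 and 545 CPM in resmetirom 1, 2 and 3, against 627, 619 and 813 CPM in MASH (−0.85 ± 0.36; edgeR adjusted p = 0.301). Fbp1 stood at 496, 292 and 507 CPM against 729, 736 and 924 CPM (−0.88 ± 0.63; adjusted p = 0.532). Neither passed, also without control 1 and resmetirom 2 (−0.70, adjusted p = 0.139, and −0.67, 0.0548). Pck1 and G6pc overlapped between these groups, with Pck1 at 1905, 2092 and 1070 CPM (0.59 ± 0.32; adjusted p = 0.414) and G6pc at 310, 339 and 209 CPM with resmetirom (−0.61 ± 0.41; 0.507). Ppargc1a was 3.04 to 4.46 CPM with resmetirom and 3.83 to 4.14 CPM in MASH (−0.03 ± 0.26; 0.972).

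**Figure D3:**
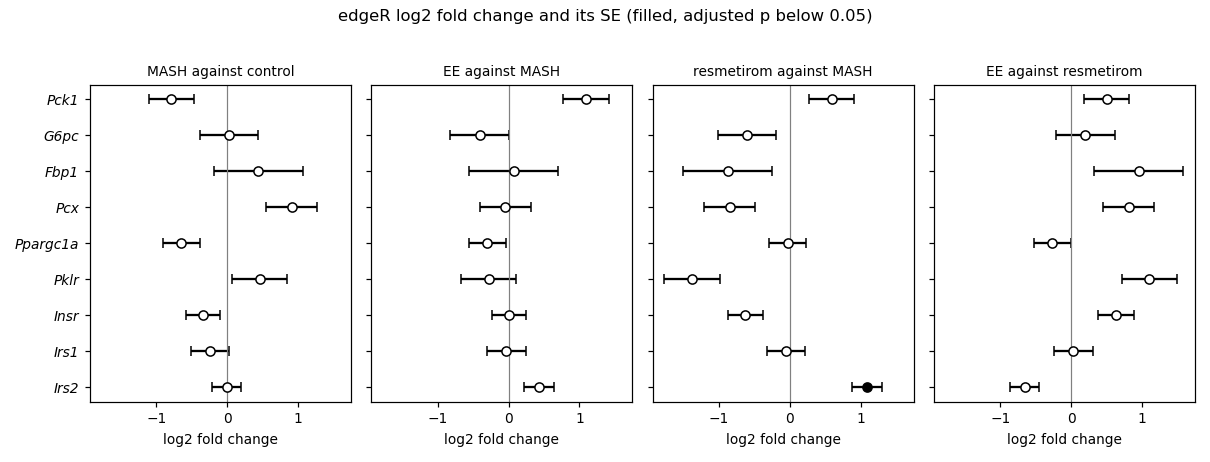
log2 fold change (horizontal, first group over second) of the 9 genes (vertical) in the 4 comparisons, from the edgeR fit of all 12 livers. Points are estimates and whiskers their SE, and a filled point has an adjusted p below 0.05. Irs2 with resmetirom (1.09 ± 0.21) is the filled point, and all others are open.

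The comparison of Eleutheroside E with MASH addresses what that compound did in the diet model. Pck1 stood at 1676, 2541 and 2933 CPM in EE 1, 2 and 3 and at 1311, 1203 and 853 CPM in MASH 1, 2 and 3. Every EE liver was above every MASH liver, and EE 2 and EE 3 were above all other livers. The mean was 2383 ± 643 CPM against 1123 ± 239 CPM (log2 fold change 1.09 ± 0.32), which did not pass in the fit of all 12 livers (edgeR adjusted p = 0.595). With EE and MASH fitted alone the adjusted p was 0.0423, and 0.118 with the replicate number as a block in that fit. The fit of those groups alone called 746 of 13248 genes, and 2745 with the block, against 1 of 13988 in the fit of all livers. Irs2, described above, was the other member whose groups did not overlap. Kupffer cell markers, all 8 measured, summed to 637 to 759 CPM with Eleutheroside E and 364 to 499 CPM in MASH, and hepatocyte markers, 9 of 10 measured, to 99480 to 106200 CPM and 77710 to 92280 CPM. Stellate cell and fibroblast markers, all 8 measured, summed to 131 to 188 CPM with Eleutheroside E and 231 to 262 CPM in MASH. Their part in the Pck1 difference was not tested.

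In this comparison 0 of the 9 genes passed edgeR and 1 (Pck1) had an unadjusted p below 0.05, while 0 passed with DESeq2 or limma voom. Of all tested genes 0.00715% passed, which is 1 gene, and 5 passed with the replicate number as a block. An unadjusted edgeR p below 0.05 was reached by 1048 of all 13988 tested genes. The groups did not overlap in 2 of the 9 genes, beside 32.3% of all tested genes, and the median was −0.03 over the 9 and −0.02 over all.

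G6pc, the other textbook target of fasting, stood at 216, 353 and 417 CPM in EE 1, 2 and 3 against 562, 542 and 207 CPM in MASH (−0.41 ± 0.41; edgeR adjusted p = 0.861), so that the low MASH 3 overlapped the EE livers. Pck1 over G6pc, per kilobase, was 5.47, 5.06 and 4.95 with Eleutheroside E, 1.64, 1.56 and 2.9 in MASH, 5.65, 2.78 and 2.31 in controls and 4.32, 4.34 and 3.6 with resmetirom. In each treated liver this ratio exceeded that of each MASH liver, and the controls spanned nearly the whole range. Fbp1 and Pcx overlapped, at 835 ± 78.3 against 796 ± 111 CPM for Fbp1 (0.07 ± 0.63; adjusted p = 0.986) and 665 ± 112 against 686 ± 110 CPM for Pcx (−0.05 ± 0.36; 0.982). Pklr (−0.28 ± 0.39; 0.899) and Ppargc1a (−0.30 ± 0.26; 0.831) overlapped as well.

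The comparison of MASH with control addresses the diet model itself. Pck1 stood at 1311, 1203 and 853 CPM in MASH and at 2160, 1692 and 1965 CPM in controls 1, 2 and 3. On TMM-scaled levels each MASH liver was below each control (−0.79 ± 0.32, edgeR adjusted p = 0.521). The difference was −0.69 without control 1 and resmetirom 2, and −0.36 (edgeR adjusted p = 0.761) with library totals only. Ppargc1a also separated the groups, at 4.07, 4.14 and 3.83 CPM in MASH and 5.73, 5.58 and 7.61 CPM in controls (−0.65 ± 0.26; adjusted p = 0.521). On these TMM-scaled levels it was at most 4.46 CPM in all 9 livers on the high-fat diet, below the lowest control. Control 1 rests on 57 counts of Ppargc1a, fewer than the 86, 99 and 98 of MASH 1, 2 and 3. With library totals only the Ppargc1a difference was −0.29 (edgeR adjusted p = 0.776), and without control 1 and resmetirom 2 it was −0.70 (0.341). Periportal hepatocyte markers, all 8 measured, summed to 4717 to 5427 CPM in MASH, 7402 to 8492 CPM in controls and 6248 to 6864 CPM with Eleutheroside E. Pck1 is itself enriched in periportal hepatocytes, and the part of these cells in the Pck1 differences was not tested.

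Pcx went the opposite way and was higher in MASH, at 627, 619 and 813 CPM against 181, 448 and 467.5 CPM (0.91 ± 0.36; edgeR adjusted p = 0.521). Control 1 was the low control here, and without it the difference was 0.59, as it was 0.60 without both outlying libraries. Fbp1 depended on that library for its direction. It was 65.8 CPM in control 1 and 870 and 828 CPM in the other controls, and MASH against control was 0.44 ± 0.63 with control 1 and −0.08 without it (edgeR adjusted p = 0.85 with it). G6pc was 269, 428 and 599 CPM in controls, overlapping MASH (0.02 ± 0.41; adjusted p = 0.992).

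Of the 9 genes, 0 passed edgeR in MASH against control, 3 (Pck1, Pcx and Ppargc1a) had an unadjusted p below 0.05, and 0 passed with DESeq2 or limma voom, where edgeR called 0.0143% of all tested genes. Of all 13988 tested genes, 1291 had an unadjusted edgeR p below 0.05. The groups did not overlap in 4 of the 9 (Pcx higher; Pck1, Ppargc1a and Insr lower), beside 19.7% of all tested genes. The median was −0.01 over the 9 and −0.02 over all.

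Eleutheroside E and resmetirom were compared directly at their own doses. The groups did not overlap in 4 of the 9 genes, beside 17.8% of all tested genes: Pklr, Insr and Fbp1 were higher and Irs2 was lower with Eleutheroside E. 0 of the 9 passed edgeR, 4 had an unadjusted p below 0.05 (Irs2, Pklr, Insr and Pcx), and 0 passed with DESeq2 or limma voom, where edgeR called 0.307% of all tested genes. Of all 13988 tested genes, 1652 had an unadjusted edgeR p below 0.05. Fbp1 was 785, 796 and 926 CPM with Eleutheroside E against 496, 292 and 507 CPM (0.95 ± 0.63; edgeR adjusted p = 0.614), and it passed without control 1 and resmetirom 2 (0.72; 0.0452). Insr (0.63 ± 0.25; 0.332) and Pcx (0.81 ± 0.36; 0.415) did not pass, and Pck1 overlapped (0.50 ± 0.32; 0.603). The median was 0.50 over the 9 genes and −0.08 over all tested genes.

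The rest of the pathway was read from 8 lists with 165 further genes, of which 162 were tested. edgeR called 1 of the 162 for resmetirom against MASH, Ugp2, and 0 in each of the other 3 comparisons, with 33, 15 (MASH against control), 21 (EE against MASH) and 26 (EE against resmetirom) at an unadjusted p below 0.05. DESeq2 called 14, 3, 2 and 10 in the same order, and limma voom 1, 0, 0 and 0. Of all 13988 tested genes, 2102, 1291, 1048 and 1652 had an unadjusted edgeR p below 0.05 in that order. edgeR called 0.665%, 0.0143%, 0.00715% and 0.307% of them. DESeq2 called 657, 87, 28 and 410 of them, and limma voom 100, 1, 0 and 30.

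Ugp2, which makes UDP-glucose for glycogen, fell with resmetirom. It stood at 123, 160 and 184 CPM in resmetirom 1, 2 and 3 and at 370, 370 and 405 CPM in MASH 1, 2 and 3. Every resmetirom liver was below the other 9, since the EE livers were at 283 to 310 CPM and the controls at 355 to 416 CPM. The change against MASH was −1.30 ± 0.20 (edgeR adjusted p = 0.0191), and −1.32 (0.0101) without control 1 and resmetirom 2. DESeq2 and limma voom also called it (adjusted p = 1.25e-09 and 0.0165). The edgeR call was lost without MASH 1, MASH 2 or MASH 3 (0.0789, 0.079 and 0.112), without EE 3 (0.051) or resmetirom 2 (0.0503), with MASH and resmetirom fitted alone (0.121) and with library totals only (0.102). In the glycogen list, 12 of 15 tested genes were negative with resmetirom (median −0.49). The groups did not overlap in 7 of these, beside 23.9% of all tested genes. edgeR called Ugp2, and DESeq2 called Ugp2 and Ppp1r3c. Ppp1r3c, which targets a phosphatase to glycogen, stood at 2.12, 4.42 and 22.76 CPM against 99.2, 36.2 and 22.84 CPM (−2.43 ± 0.78; edgeR adjusted p = 0.179; DESeq2 0.0237). With Eleutheroside E 8 of the 15 were positive, and in MASH against control 9 of 15.

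Among insulin signalling genes downstream of the substrates, 10 of 24 were positive with resmetirom (median −0.13). edgeR called 0 of the 24 in each comparison, and DESeq2 called 1, Akt1 with resmetirom. Akt1, a kinase that carries the insulin signal, stood at 65.8, 72.1 and 69.3 CPM with resmetirom and 34.4, 38.0 and 42.9 CPM in MASH (0.85 ± 0.20; edgeR adjusted p = 0.0808; DESeq2 0.00149). The groups lay well apart, and edgeR called the gene without control 1 and resmetirom 2 (0.81; 0.0117). With Eleutheroside E it was 46.0 to 51.3 CPM, between the 2 groups. Rps6kb1, the S6 kinase of the mTOR branch, was 8.11 ± 1.19 CPM with Eleutheroside E and 13.7 ± 2.57 CPM in MASH (−0.76 ± 0.21; adjusted p = 0.582), where 8 of the 24 genes were positive. Among 15 tested brakes on the pathway, 10 were positive with resmetirom and 8 with Eleutheroside E. Ahsg (fetuin-A), an abundant secreted inhibitor of the insulin receptor kinase, stood at 8316 ± 1568 CPM with resmetirom, 6519 ± 1133 CPM with Eleutheroside E and 3833 ± 126 CPM in MASH (1.12 ± 0.27 and 0.77 ± 0.27; edgeR adjusted p = 0.0874 and 0.604; DESeq2 4.82e-06 and 0.0458). Without control 1 and resmetirom 2 edgeR called it with resmetirom (0.96; 0.0289) and not with Eleutheroside E (0.75; 0.0665).

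Of 31 transcriptional regulators of gluconeogenesis, edgeR called 0 in each comparison, and DESeq2 called Cebpb for resmetirom against MASH and Sik1, a kinase that restrains CREB coactivators, for EE against resmetirom (−1.67 by edgeR; DESeq2 adjusted p = 0.0479). With Eleutheroside E 15 were positive and 16 negative, and the groups did not overlap in 12 of the former and 4 of the latter, beside 32.3% of all tested genes. Klf15, a factor that promotes amino acid use for gluconeogenesis, stood at 129, 150 and 184 CPM in EE 1, 2 and 3 against 89.6, 79.3 and 60.1 CPM in MASH (1.02 ± 0.27; edgeR adjusted p = 0.582; 1.00 and 0.0486 without control 1 and resmetirom 2). Foxo1 stood at 38.1, 51.7 and 62.9 CPM against 27.1, 26.3 and 29.7 CPM (0.88 ± 0.31; adjusted p = 0.604). Nr3c1, the glucocorticoid receptor, was 31.3 ± 3.92 against 50.2 ± 8.71 CPM (−0.68 ± 0.21; 0.595). In MASH against control 22 of the 31 were negative (median −0.28), among them Klf15 (−0.78 ± 0.27; 0.512) and Hnf4a, a master regulator of hepatocyte genes, at 367.5 ± 32.5 against 537.5 ± 33.8 CPM (−0.55 ± 0.21; 0.519). With resmetirom 19 were positive, and Cebpb, a factor that binds the Pck1 promoter, stood at 162, 287.5 and 75.9 CPM against 47.8, 69.0 and 49.6 CPM (1.66 ± 0.46; edgeR adjusted p = 0.123; DESeq2 0.0142), and its difference was 1.11 (0.124) without the outlying libraries.

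**Figure D4:**
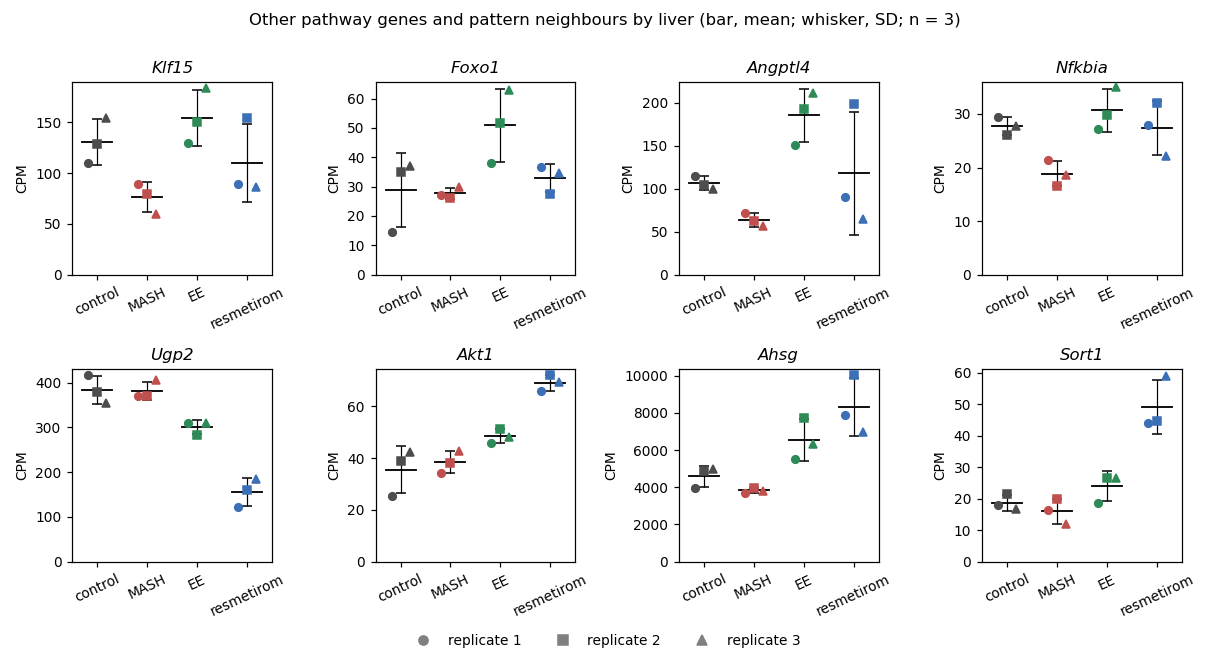
Level of 8 other genes in each liver, in CPM on a linear axis from 0 (vertical) by group (horizontal), chosen from the fixed lists and the genes whose pattern was most like a member's. Points are single livers, bars means and whiskers the SD over n = 3. Klf15, Foxo1, Angptl4 and Nfkbia are higher in every EE liver than in every MASH liver, and Ugp2 is lower and Akt1, Ahsg and Sort1 are higher in every resmetirom liver than in every MASH liver.

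Of 22 other enzyme and transporter genes of gluconeogenesis and the steps it shares with glycolysis, edgeR called 0 in each comparison. DESeq2 called 3 for resmetirom against MASH and 2 for EE against resmetirom, Pck2 among them both times. With resmetirom, Pck2, the mitochondrial form of the carboxykinase, stood at 20.2, 8.24 and 5.74 CPM against 3.51 to 4.22 CPM in MASH (1.55 ± 0.44; edgeR adjusted p = 0.135; DESeq2 0.0235). With Eleutheroside E, Slc37a4, the transporter that feeds glucose-6-phosphate to G6pc, was 203 ± 35.7 against 133 ± 26.3 CPM (0.60 ± 0.38; 0.785). In MASH against control, Ldha, lactate dehydrogenase, was 872 ± 34.4 against 414 ± 250 CPM (1.07 ± 0.41; 0.519), with control 1 at 133 CPM, and the difference was 0.67 (0.207) without the outlying libraries. Of 21 glycolytic genes edgeR called 0 in any comparison, and DESeq2 called Aldoa and Pdk1 for resmetirom against MASH and Pfkp for EE against resmetirom. Pdk1, a kinase that shuts off pyruvate dehydrogenase, stood at 12.4, 14.6 and 43.8 CPM with resmetirom against 71.3 to 75.5 CPM in MASH (−1.63 ± 0.43; edgeR adjusted p = 0.107; DESeq2 0.00959), and Pfkfb3, which makes an activator of glycolysis, at 17.9, 48.9 and 48.4 CPM with Eleutheroside E against 7.09, 17.3 and 10.2 CPM (1.74 ± 0.64; 0.617).

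Of 18 insulin- and fasting-responsive transcripts edgeR called 0 in each comparison. DESeq2 called Angptl8 and Apoa4 for MASH against control, Angptl4 for EE against MASH, 3 genes with Igfbp1 and Ppp1r3c among them for resmetirom against MASH, and 4 genes with Apoa4, Fgf21 and Pnpla3 among them for EE against resmetirom. Angptl4 was 185 ± 30.8 CPM with Eleutheroside E and 63.4 ± 7.87 CPM in MASH (1.54 ± 0.35; edgeR adjusted p = 0.582; 1.53 and 0.0155 without control 1 and resmetirom 2). Srebf1, an insulin-induced regulator of fat synthesis, was 97.45, 79.3 and 243 CPM with resmetirom against 236, 312 and 418 CPM in MASH, overlapping through resmetirom 3 (−1.20 ± 0.40; edgeR adjusted p = 0.199). Angptl8, a feeding-induced secreted protein, was 16.8 ± 2.06 CPM in MASH and 140 ± 112 CPM in controls (−3.06 ± 0.67; edgeR adjusted p = 0.246; DESeq2 0.000739), with control 1 at 268 CPM, and the difference was −2.15 (0.213) without the outlying libraries. Of 20 genes of substrate entry edgeR called 0 in each comparison. DESeq2 called Gls2 for MASH against control, Psat1 and Sdsl for resmetirom against MASH, and Psat1 for EE against resmetirom. Psat1 stood at 13.8, 2.47 and 1.28 CPM in resmetirom 1, 2 and 3, and at 0.615 to 1.38 CPM in MASH and 0.616 to 1.10 CPM with Eleutheroside E. The amino acid enzymes Agxt and Sds were lower in every MASH liver than in every control, at 164 ± 10.5 against 268.5 ± 37.2 CPM and 74.3 ± 15.8 against 160 ± 53.8 CPM (−0.71 ± 0.23 and −1.11 ± 0.37; adjusted p = 0.51 each). The list as a whole went both ways in MASH against control, with 9 of the 20 genes positive and 11 negative. The groups did not overlap in 5 of the positive and 7 of the negative genes, beside 19.7% of all tested genes. Sds, Gls2 and Hal of this list are also among the periportal markers. With Eleutheroside E, Agxt stood at 245 ± 44.9 CPM (0.58 ± 0.23; 0.627) and Gk, the kinase that lets glycerol into the pathway, at 75.7 ± 6.68 against 126 ± 5.65 CPM (−0.73 ± 0.30; 0.631).

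Across the 12 livers, the genes whose log2 CPM most resembled a member's were found among 6813 candidates, as a description in which all genes share the libraries and their group differences. Pck1 was most like Nfkbia (Pearson r = 0.91), an inhibitor of NF-kappa B, Angptl4 (0.89), an inhibitor of lipoprotein lipase, and Klf15 (0.88), and these values were 0.90, 0.91 and 0.90 over the 10 livers without control 1 and resmetirom 2. Irs2 was most like Sort1 (0.93), a sorting receptor, Slc22a7 (0.92) and Tcp11l2 (0.92). Sort1 stood at 43.9, 44.5 and 58.8 CPM with resmetirom and at 11.9 to 26.7 CPM in the other 9 livers. The genes most like Pklr included Sar1b (0.97), a GTPase of secretory vesicles, and the glucose transporter Slc2a2 (0.94). Pcx was most like Hsd17b4 and Hadh (0.98 each), both enzymes of fatty acid oxidation. Fbp1 reached 0.99 with Psmd1 over 12 livers and 0.93 over 10, while its next neighbours, Icmt and Acad11 (0.98 each), had 0.83 and 0.76 over the 10.

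Among the members themselves, Pck1 and G6pc had an r of 0.27 over the 12 livers and 0.35 over 10. Fbp1 and Pcx had 0.86 and 0.60, Pklr and Pcx 0.63 and 0.85, and Insr and Irs2 −0.73 and −0.61. Ppargc1a had 0.04 with Pck1 and 0.43 with G6pc over 12 livers. These are descriptions over livers that differ by group.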

How the data were processed

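Poly(A) RNA of 12 mouse livers was sequenced from a stranded kit, per the labels' protocols. The authors deposited 1 table of expected counts per gene, most of them whole numbers. fastp and the build GRCm39 are named in the submitters' processing notes. For the aligner, counting tool, annotation and strand setting, the sources used here give no name. The estimated counts were rounded. Libraries held 17297864 to 21793311 counts, and the scarcest member, Ppargc1a, 48 to 150 a library.

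Symbols came from GENCODE M21, which named 22603 of the 28036 identifiers, and exon lengths from the same release (GRCm38). Genes passing filterByExpr (13988) were scaled by TMM and tested with edgeR 4.0.16 (R 4.3.3), using robust quasi-likelihood F tests with Benjamini-Hochberg adjustment, a threshold of 0.05 and 4 groups in 1 fit (8 residual degrees of freedom). Standard errors (SE) were obtained by dividing a fold change's size on the log2 scale by the square root of F. Alternatives were DESeq2 1.42.0, limma 3.58.1 voom, other scalings, no filter, the compared groups alone, a replicate block, and libraries left out. The code was tested on simulated data. For EE and MASH, samples with the same number deviated together from their group means (r = 0.28, 0.22 and 0.21). Fits with the number as a block are given beside the main fit, which has no block. No label states a pairing, and no correlation between samples of different numbers is given here. These values therefore do not show that the samples were paired.

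Named genes are the 9 members, up to 3 genes of each pathway list with the smallest p in a comparison, and the 3 genes most like each member over the 12 livers (mean of at least 10 CPM). A few genes that this rule names are not reported here. Igfbp1 is named as a DESeq2 call, chosen after its values were seen, as were the values of named pathway genes with DESeq2 and without the outlying libraries. A gene is called separate, or not overlapping, when all 3 livers of a group lie above all 3 of the other. Members, lists and tests were chosen with earlier results of these data known. Promoter windows are from RefSeq (GRCm38.p6), and 8 of the 9 members had one, Insr not.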

Additional observations from a re-analysis of the deposited data

How the results depend on the processing

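Irs2 with resmetirom kept its direction under all 21 alternatives, and Pck1 was positive in EE against MASH under all 21. For MASH against control edgeR called 2 of all tested genes, and 1 with library totals, 87 with DESeq2, 1 with limma voom, 34 with no filter, 0 with the compared groups alone, 0 with the replicate block in those alone, 9 without control 1 and resmetirom 2 together, and 0 to 6 with 1 library left out. For EE against MASH it called 1, and 28 with DESeq2, 0 with voom, 8 with no filter, 746 alone, 5 with the replicate block, 2745 with the block alone, 67 without both libraries and 0 to 1 with 1 left out. For resmetirom against MASH it called 93, and 38 with totals, 657 with DESeq2, 243 with no filter, 0 alone, 112 with the replicate block, 27 with the block alone, 467 without both libraries and 1 to 431 with 1 left out. For EE against resmetirom it called 43, and 12 with totals, 410 with DESeq2, 176 with no filter, 3 alone, 19 with the replicate block, 10 with the block alone, 417 without both and 7 to 138 with 1 left out. Of the 9 genes, resmetirom against MASH called 1, and 0 with totals, alone, with the replicate block (Irs2 adjusted p = 0.0518) or with the block alone (0.127), 2 (Irs2 and Pklr) with DESeq2 and with no filter, and 0 to 1 with 1 left out. EE against MASH called 1 (Pck1) alone, and EE against resmetirom 1 (Fbp1) without both libraries. The same-number correlations were −0.02, 0.07 and −0.02 for MASH against control, 0.15, 0.20 and 0.00 for resmetirom against MASH and 0.04, 0.08 and 0.14 for EE against resmetirom. In all 4 comparisons the labels link these samples by number only. Signs changed in 43 of 756 values of the members, none of them past the threshold. In MASH against control these were Insr (0.01), Irs1 (0.12) and Irs2 (0.38) with totals, G6pc (−0.01) and Irs2 (0.00) with voom, Irs2 with no filter (0.05), G6pc (−0.02) and Irs2 (0.02) with the block alone, Irs2 with the replicate block (0.02), and G6pc (−0.22) and Fbp1 (−0.08) without both libraries. In EE against MASH they were Fbp1 (−0.23) and Insr (−0.29) with totals, and Insr alone (0.00), with the block alone (0.00) and without both (−0.01). In EE against resmetirom they were Irs1 with totals (−0.06) and without both (−0.04). With 1 library left out, MASH against control ranged from −0.22 to 0.36 for G6pc, −0.08 to 0.83 for Fbp1 and −0.15 to 0.22 for Irs2; EE against MASH from −0.01 to 0.19 for Fbp1, −0.14 to 0.09 for Pcx, −0.04 to 0.07 for Insr and −0.22 to 0.25 for Irs1; resmetirom against MASH from −0.13 to 0.13 for Ppargc1a and −0.29 to 0.22 for Irs1; and EE against resmetirom from −0.16 to 0.26 for Irs1. Scaling by totals moved the median of all genes to 0.37, −0.32, −0.13 and −0.17 in the 4 comparisons (0.99 for Irs2 with resmetirom relative to it). The cause of the other changes was not tested. With 3 livers a group, a difference that did not pass is not shown to be absent.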

Other observations

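Slc22a7, an organic anion transporter whose pattern was among those most like Irs2, stood at 140, 869 and 448 CPM with resmetirom and at 22.9 to 100 CPM in the other 9 livers, so that resmetirom 2 was the highest by far. Apoa4, a lipid-responsive apolipoprotein of the fasting list, was 1420 ± 534 CPM in MASH, 155 ± 28.9 CPM in controls and 416 ± 197 CPM with Eleutheroside E (SD, n = 3 each), and the edgeR differences did not pass (3.19 ± 0.53, adjusted p = 0.16 for MASH against control; −1.77 ± 0.50, 0.595 for EE against MASH), while DESeq2 called the first (2.54e-07) and not the second (0.0727). With resmetirom it stood at 2029, 540 and 1583 CPM, with resmetirom 2 again apart from the others. Fgf21, a hepatokine of fasting, was 44.3, 6.07 and 15.3 CPM with resmetirom and at most 7.29 CPM in the other 9 livers.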
